A study of Mus musculus with 60 samples.

Results

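The lungs of mice killed 6 h after a 4 h exposure to superparamagnetic iron oxide (SPIO) nanoparticles were compared with those of exposed mice killed at 0 h, right after the exposure ended. The comparison used 10 of the 60 arrays of the study, the 5 exposed arrays of 6 h and the 5 exposed arrays of 0 h. Each array held RNA from 1 lobe of the right lung, the diaphragmatic lobe, of a male Balb/c mouse, and values were log2 expression values for 18193 genes, with 1 probe set per gene. Exposed mice had breathed the SPIO aerosol for 4 h, and sham mice had breathed humidified helium-oxygen HEPA-filtered air for 4 h. All mice had been held in nose-only restraint tubes for their exposure, so that restraint was common to exposed and sham lungs, and the arms had sat in separate exposure units, so that unit and treatment cannot be told apart. The study had 12 groups of 5 mice, an exposed and a sham group at each of 0, 6, 24, 48, 96 and 168 h. The 5 sham arrays of 6 h and the 5 sham arrays of 0 h were set beside the exposed arrays, to show what changed over the same hours without particles. The clock time at which mice were killed was not given in the sources used here. The later groups lay whole days after 0 h, whereas 6 h lay within the same day, so hours since exposure and time of day moved together between 0 h and 6 h and cannot be told apart within the exposed lungs.

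Lung tissue keeps its own circadian clock. In its core loop the activators encoded by Arntl, Clock and Npas2 drive genes that hold an E-box, among them the Per, Cry and Nr1d repressors and the output factors Dbp, Tef and Hlf, and the Nr1d repressors in turn shut down Arntl and Npas2. Lipid genes follow feeding in many tissues. The sterol-responsive factors Srebf1 and Srebf2 drive cholesterol and fatty acid synthesis, which alveolar type 2 cells use for surfactant lipid, while the fatty acid receptor PPARα and its relatives drive fatty acid oxidation genes such as Cpt1a, Pdk4 and Angptl4 when food is scarce.

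The arrays carried lung RNA. The surfactant protein genes Sftpa1, Sftpb, Sftpc and Sftpd, the club cell gene Scgb1a1 and the alveolar type 1 gene Ager were at 11.96 or more on all 20 arrays of 0 h and 6 h, and none passed the test between the exposed groups. Genes of neighbouring tissues varied widely within groups. The heart gene Myh6 ran from 4.13 to 11.65 in exposed lungs at 6 h and from 6.36 to 11.9 at 0 h, and the fat gene Adipoq from 5.93 to 9.43 at 6 h and from 3.77 to 8.86 at 0 h, so the exposed groups overlapped. The liver gene Alb reached 7.18 at most in exposed lungs at 6 h and 10.38 at most, on array 1, at 0 h. The sham 0 h array 1 stood apart from all others, with Alb at 14.02, the liver gene Apoa1 at 12.49 and the skeletal muscle gene Acta1 at 11.43. That array also carried Xist, the transcript of the inactive X chromosome in female cells, at 11.94, against 6.02 at most on any other array of the study, although its label says male. Its Y-linked genes lay within the range of the other arrays, with Eif2s3y at 8.40 (5.98 to 9.35 elsewhere), Kdm5d at 6.95 (5.69 to 7.77) and Uty at 6.70 (5.12 to 7.42). None of the cardiac, skeletal muscle, adipose, liver, erythroid, mesothelial, thymus or mast cell lists had a gene that passed in the exposed comparison.

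In exposed lungs, 633 of 18193 genes (3.48%) differed between 6 h and 0 h at an adjusted p under 0.05 by limma, 448 of them higher (2.46%) and 185 lower (1.02%) at 6 h. At an unadjusted p under 0.05 the count was 2780. The changes were modest: 111 of the higher and 61 of the lower genes differed by at least 1.5-fold, and 22 and 16 by at least 2-fold. The median absolute log2 difference of the 633 genes was 0.42, against a median standard error (SE) over all genes of 0.11. The 5 arrays of 6 h did not overlap the 5 of 0 h for 471 of the 633 genes, and for 1028 of all genes (5.65%). The count leaned on single arrays. It was 347 without exposed 0 h array 1, 306 without exposed 0 h array 2 and 402 without exposed 6 h array 4. The split between higher and lower also moved with scaling: quantile normalization of the values put 473 genes higher and 343 lower, and centring each array on its median put 488 higher and 145 lower.

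In sham lungs, 2072 genes (11.4%) differed over the same hours, 1132 higher (6.22%) and 940 lower (5.17%) at 6 h. Of the 633 genes that changed in exposed lungs, 230 changed the same way in sham lungs, 147 of them higher and 83 lower, and 7 changed in opposite directions. These 230 were 36.3% of the exposed calls and 11.1% of the sham calls. A further 326 had a sham value of the same sign that did not pass, so that 556 of 633 (87.8%) had the same sign in both, against 59.6% of all genes. Across the 18193 genes, which are not independent replicates, the exposed and the sham differences had a Pearson's r of 0.37 and a Spearman's rho of 0.29. The test of the difference itself, the exposed change minus the sham change, passed for 161 genes (0.885%), 99 with the exposed change above the sham change (0.544%) and 62 below (0.341%). Of the 633 genes changed in exposed lungs, 38 (6.0%) passed this test as well. A gene that passed in exposed lungs and not in sham lungs was therefore in most cases not shown to differ between them. Of the 161, 121 had changed in sham lungs and had not passed in exposed lungs, and 2 had passed in neither. Without sham 0 h array 1 the sham count was 2440 and the count of differences 323, and over the omission of each of the 20 arrays in turn the count of differences ran from 58 to 323.

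**Figure D1:**
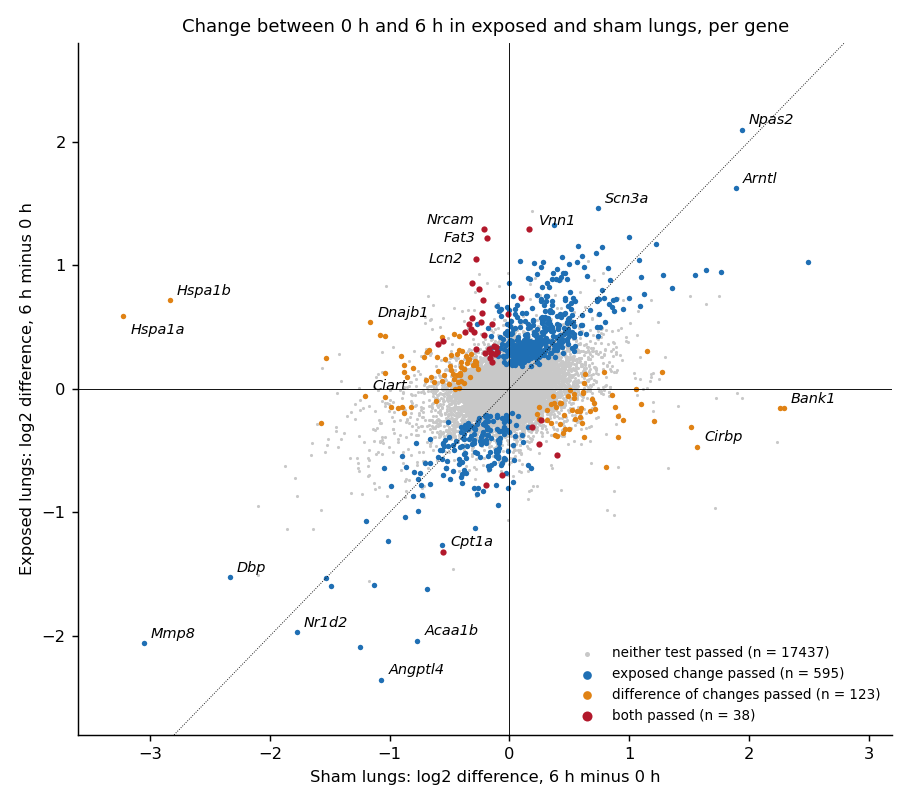
The log2 difference of 6 h minus 0 h in exposed lungs (vertical) against that in sham lungs (horizontal), 1 point per gene, with equal change on the dotted line. Clock genes such as Npas2 and Nr1d2 lie near the line in both, the 38 genes in red passed both in exposed lungs and by the difference of changes, and those in orange, such as Hspa1a and Bank1, passed by the difference of changes and not in exposed lungs.

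Clock genes moved in both arms. Of 20 measured clock and output genes, 2 rose and 8 fell at 6 h in exposed lungs, with a median log2 difference of -0.39 over the list and 0.02 over all genes. In sham lungs 2 rose and 13 fell, with a median of -0.61. All 10 genes that passed in exposed lungs changed the same way in sham lungs, all 10 had exposed arrays that did not overlap, and 19 of the 20 list members had the same sign in both. Leaving out exposed 0 h array 1 reduced the genes that fell in exposed lungs to 6.

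Npas2, a partner of Arntl in the activator complex, was the gene with the largest rise among those with no overlap. It measured 6.64, 7.19, 6.76, 7.23 and 7.23 in exposed lungs at 6 h, against 4.24, 4.65, 4.64, 5.48 and 5.57 at 0 h. In sham lungs it measured 5.66, 5.02, 6.25, 6.12 and 6.2 at 6 h, against 3.91, 3.93, 3.92, 3.75 and 4.03 at 0 h. The lowest array of 6 h lay above the highest of 0 h in both, and at each time every exposed array lay above every sham array. The rise was 2.1 ± 0.27 on the log2 scale (SE, n = 5 each; 4.27-fold; limma adjusted p = 7.1e-07) in exposed lungs and 1.94 in sham lungs, and the difference of the changes, 0.15, did not pass (adjusted p = 0.93). An exact permutation test of the exposed arrays alone gave p = 0.0079, the smallest that 5 against 5 allows.

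Arntl, the core activator, rose by 1.62 ± 0.27 (adjusted p = 5.9e-05) in exposed lungs and 1.89 in sham lungs. It measured 9.13 to 9.54 in exposed lungs at 6 h and 7.32 to 8.57 at 0 h. Nr1d2, a repressor of Arntl and Npas2, moved the other way. It measured 9.19, 9.38, 9.87, 8.67 and 9.29 in exposed lungs at 6 h, against 11.68, 11.48, 11.39, 11.04 and 10.66 at 0 h. The difference was -1.97 ± 0.16 (3.92-fold lower; adjusted p = 1.4e-12), the smallest p of the clock list, beside -1.78 in sham lungs.

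The output factor Dbp, a D-box activator, differed by -1.52 ± 0.34 (adjusted p = 0.0042) in exposed lungs and by -2.34 in sham lungs. Its relatives Tef and Hlf differed by -0.54 and -0.77, and the period gene Per3 by -1.07. The remaining genes that fell were Wee1, a cell cycle kinase under clock control, by -0.64, the deubiquitinase gene Usp2 by -0.60 and the activator of Arntl, Rora, by -0.47. Rora was the weakest of these, losing its call under 13 of 20 alternatives. Genes of the same loop that did not pass in exposed lungs were Per1 at -0.14, Per2 at -0.49, Cry1 at 0.31, Cry2 at -0.33, Clock at 0.24, Nr1d1 at -0.44, Nfil3 at 0.46, Bhlhe40 at -0.25 and Bhlhe41 at 0.08.

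Ciart, a clock repressor, was the 1 gene of the list for which the test of exposed against sham change passed. It measured 6.12, 5.87, 6.10, 6.54 and 6.13 in exposed lungs at 6 h, against 6.51, 6.25, 6.13, 5.72 and 6.44 at 0 h, and those arrays overlapped. In sham lungs it measured 5.70, 5.68, 5.83, 6.08 and 5.76 at 6 h, against 6.99, 7.54, 6.71, 6.81 and 7.03 at 0 h. The exposed difference was -0.06 (adjusted p = 0.93), the sham difference -1.20, and the difference of the changes 1.14 (adjusted p = 0.0057). The call held under all 29 alternatives.

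**Figure D2:**
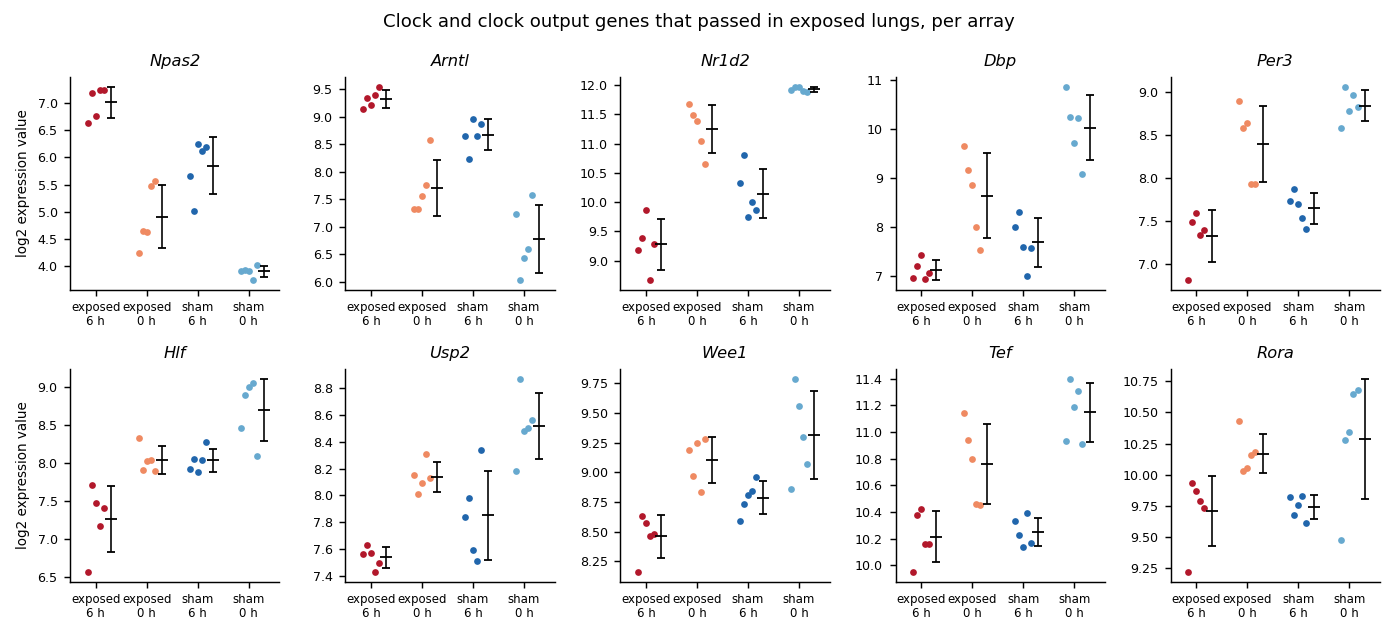
Log2 expression values of the 10 clock and output genes that passed in exposed lungs, 1 point per array, with the mean and SD of each group of 5 beside it. Npas2 and Arntl are higher at 6 h than at 0 h in exposed and sham lungs alike, the other 8 genes are lower, and exposed lungs at 0 h lie between the sham groups for Npas2, Nr1d2 and Dbp.

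Short stretches before the start sites of 3 clock genes are printed because they hold the elements through which the loop works. They come from RefSeq on GRCm38.p6, and capitals mark the match to the E-box CACGTG or to the D-box TTANGTAA, searched on both strands of the 250 bases before the start. These motifs were chosen after the values were seen. For Ciart the stretch is chr3:95882255-95882356 on the minus strand, for Tef chr15:81802534-81802563 on the plus strand, and for Per3, with the D-box, chr4:151044804-151044882 on the minus strand.
Ciart: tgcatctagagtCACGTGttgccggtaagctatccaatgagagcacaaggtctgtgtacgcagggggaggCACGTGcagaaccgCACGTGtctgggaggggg
Tef: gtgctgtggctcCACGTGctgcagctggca
Per3: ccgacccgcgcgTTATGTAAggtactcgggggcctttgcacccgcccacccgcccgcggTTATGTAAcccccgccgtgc

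The E-box stood in the window of 5 of 17 clock genes with a sequence (29.4%), namely Bhlhe41, Ciart, Cry1, Per1 and Tef, and in 1262 of 14452 genes overall (8.73%). Of these 5, Tef alone passed in exposed lungs. Over the genes changed in exposed lungs the E-box stood in 35 of 353 that were higher (9.92%) and 19 of 149 that were lower (12.8%). The D-box stood in 1 of 17 clock genes, Per3, and in 1.9% of all genes. A match describes the letters in the window only.

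Sterol and fatty acid synthesis genes rose: 12 of 18 measured were higher at 6 h in exposed lungs and none lower, with a median of 0.56. In sham lungs 6 rose and none fell, with a median of 0.28, and all 6 were among the 12. Without sham 0 h array 1, 10 rose in sham lungs, with a median of 0.35. With all arrays kept, for each of the 12 the exposed change was the larger in size. Choosing genes by the exposed test favours this, and it held for 517 of all 633 genes that passed in exposed lungs. Over the whole list, passing or not, the exposed change was the larger in size for 17 of 18, against 7839 of 18193 genes. The difference of the changes passed for none of the 18. Over the alternatives the count of 12 ran between 10 and 14.

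Idi1, which makes the isoprenoid building block of sterols, measured 10.84, 10.69, 10.90, 10.61 and 10.53 in exposed lungs at 6 h, against 9.56, 9.58, 9.72, 9.83 and 9.77 at 0 h. The groups were well apart. It rose by 1.02 ± 0.11 (2.03-fold; adjusted p = 2e-08) in exposed lungs and by 0.56 in sham lungs, with a difference of 0.46 that did not pass (adjusted p = 0.16). The enzymes along the rest of the sterol pathway followed: Hmgcs1 at its entry by 0.62, Fdps by 0.94, the squalene enzymes Fdft1 by 0.56 and Sqle by 0.91, Lss, which closes the sterol rings, by 0.73, and Cyp51 by 0.98. Dhcr7, the last enzyme of cholesterol synthesis, stood outside the list and rose by 1.08 ± 0.16 (adjusted p = 2e-05).

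Among fatty acid genes, the desaturase gene Scd1 measured 13.25, 13.22, 13.34, 13.37 and 13.21 in exposed lungs at 6 h, against 11.78, 11.96, 12.17, 12.37 and 12.31 at 0 h. It rose by 1.16 ± 0.21 (2.23-fold; adjusted p = 0.00042). In sham lungs its difference was 0.57 (adjusted p = 0.072), with sham 0 h array 1 at 13.64 and the other 4 sham 0 h arrays between 11.79 and 12.27. Scd2 rose by 0.75 and Acly, which supplies acetyl-CoA, by 0.39. The sterol sensor partner Insig1 rose by 0.55 and the regulator Srebf1 by 0.36, a call lost under 7 of 20 alternatives. The relative of Srebf1, Srebf2, at 0.23 and the fatty acid synthase gene Fasn at 0.51 did not pass. Hmgcs1, Fdft1, Sqle, Acly, Insig1, Srebf1, Srebf2 and Fasn were named after their values were seen.

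Hmgcs1 and Insig1 hold a match to the sterol element CACNCCAC, searched on both strands of the same window. They were the 2 of 12 sterol genes with a sequence that did (16.7%), against 6.63% of all genes. Among clock genes the element stood in 3 of 17 (17.6%). Over the genes changed in exposed lungs it stood in 21 of 353 that were higher (5.95%) and 9 of 149 that were lower (6.04%). Capitals mark the match in RefSeq GRCm38.p6 at chr13:119690203-119690234 on the plus strand for Hmgcs1 and chr5:28071391-28071411 on the plus strand for Insig1, where it lies on the opposite strand.
Hmgcs1: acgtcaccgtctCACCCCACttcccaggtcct
Insig1: acgtgtagtgtcGTGGCGTGt

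Genes of fasting and fatty acid oxidation fell: 8 of 17 measured were lower at 6 h in exposed lungs and none higher, with a median of -0.25. In sham lungs 7 fell and none rose, with a median of -0.40, and 6 genes fell in both. The sham count was 4 without sham 0 h array 4 or sham 6 h array 4, and 8 without sham 0 h array 1. The count in exposed lungs ran between 6 and 8 over the alternatives.

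Angptl4, a secreted inhibitor of lipoprotein lipase, had the largest fall among genes with no overlap. It measured 8.17, 8.17, 8.06, 8.43 and 8.99 in exposed lungs at 6 h, against 10.61, 10.24, 10.72, 10.94 and 11.08 at 0 h. The difference was -2.36 ± 0.40 (5.12-fold lower; adjusted p = 0.00013). In sham lungs it was -1.07 (adjusted p = 0.074), where sham 0 h array 1 read 9.28 and the other 4 sham 0 h arrays 10.82 to 11.07.

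Cpt1a, which admits fatty acids to the mitochondrion, measured 9.39, 9.73, 9.56, 9.47 and 9.66 in exposed lungs at 6 h, against 11.12, 10.79, 10.91, 10.73 and 10.87 at 0 h. In sham lungs it measured 10.47, 10.20, 10.34, 9.95 and 10.31 at 6 h, against 10.69, 10.94, 10.85, 11.04 and 10.53 at 0 h. Neither pair of groups overlapped, and the exposed arrays of 6 h were the lowest. The difference was -1.32 ± 0.12 (2.5-fold; adjusted p = 7.2e-11) in exposed lungs and -0.56 in sham lungs, and Cpt1a was the 1 gene of the list for which the difference passed, at -0.76 (adjusted p = 0.02, or 0.052 without sham 6 h array 1).

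The acyl-CoA thioesterase genes Acot1 and Acot2 differed by -1.62 ± 0.22 and -1.27 ± 0.15. They are near-identical copies, so probes may read both. Pdk4, which holds back glucose oxidation, differed by -1.53 ± 0.45 (adjusted p = 0.044) in exposed lungs and equally, by -1.53, in sham lungs, and its exposed call was lost under 11 of 20 alternatives. The insulin receptor substrate gene Irs2 differed by -0.78, Txnip, an inhibitor of glucose uptake, by -0.69 and the lipid droplet coat gene Plin2 by -0.55. Acaa1b, a peroxisomal thiolase outside the list, differed by -2.04 ± 0.26 (4.11-fold lower; adjusted p = 6.5e-07). Irs2 and Plin2 were named after their values were seen.

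**Figure D3:**
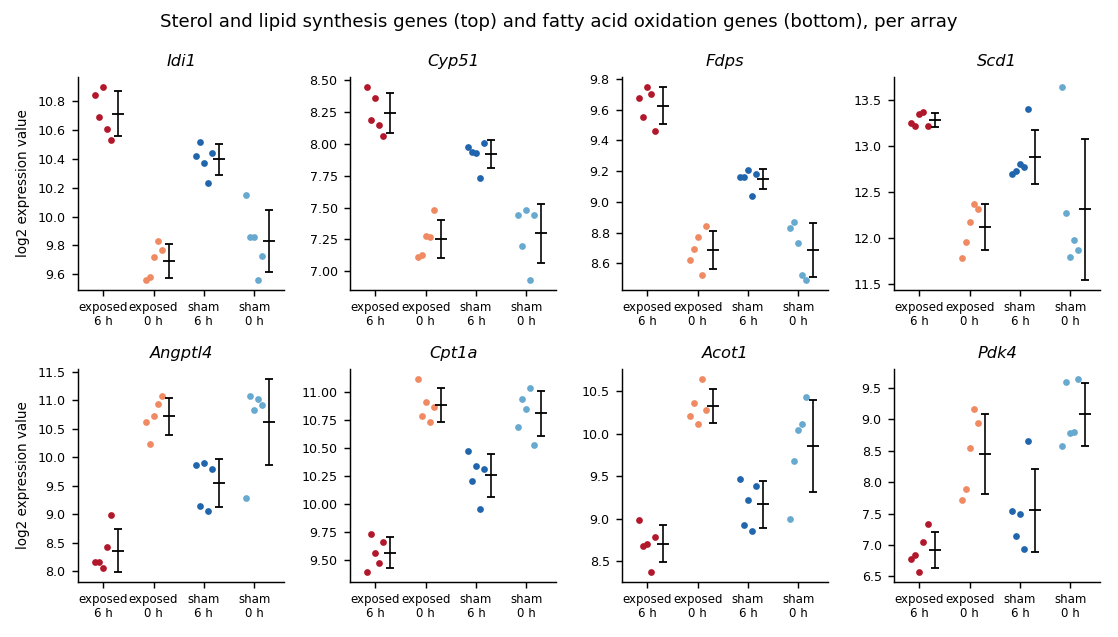
Log2 expression values of 4 lipid synthesis genes (top) and 4 fatty acid oxidation genes (bottom), 1 point per array, with the mean and SD of each group of 5. The exposed arrays of 6 h lie highest for Idi1, Cyp51 and Fdps and lowest for Cpt1a, and sham 0 h array 1 stands apart for Scd1 and Angptl4.

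Chaperones of the endoplasmic reticulum rose in exposed lungs. Of 20 measured genes of the unfolded protein response 6 rose and none fell, with a median of 0.18, and all 6 had arrays that did not overlap. In sham lungs none rose and 6 fell, with a median of -0.03. None of the 6 that rose in exposed lungs passed in sham lungs.

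Sdf2l1, a subunit of an endoplasmic reticulum chaperone complex, measured 9.46, 9.34, 9.12, 9.58 and 9.56 in exposed lungs at 6 h, against 8.33, 8.41, 8.33, 8.51 and 8.42 at 0 h. It rose by 1.02 ± 0.17 (2.02-fold; adjusted p = 5.4e-05), with 0.20 in sham lungs and a difference of 0.81 that did not pass (adjusted p = 0.072). Manf, a secreted protective factor of that compartment, rose by 0.75, the protein disulfide isomerase genes Pdia4 by 0.55, Pdia6 by 0.50 and Pdia3 by 0.37, and Hspa5, its main chaperone, by 0.45. Pdia3 was named after its values were seen.

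The difference passed for 1 gene of this list (2 without sham 0 h array 1), Atf4, a stress transcription factor, at 0.48 (adjusted p = 0.044, or 0.053 with the replicate number as a block). Atf4 differed by 0.05 in exposed lungs (adjusted p = 0.88) and fell by 0.43 in sham lungs, and the call of the difference was lost under 17 of 29 alternatives. Atf4 was named after its values were seen.

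**Figure D4:**
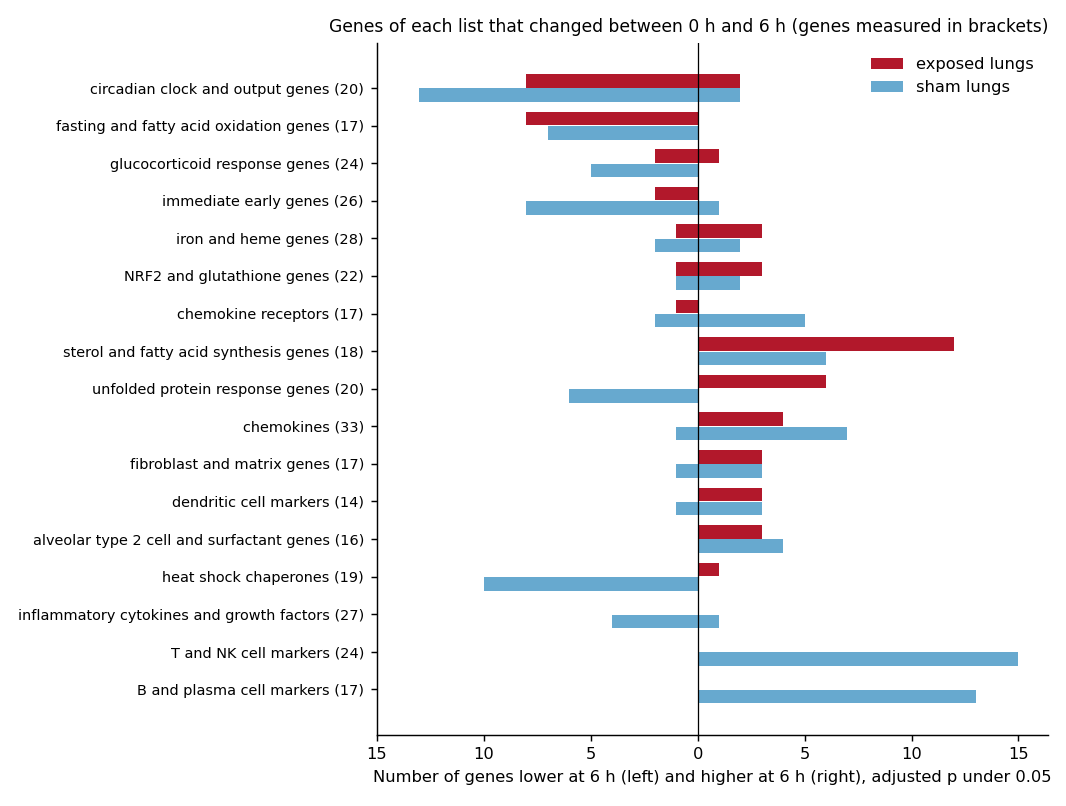
Number of genes of each list that passed between 6 h and 0 h, lower at 6 h to the left and higher to the right, in exposed lungs (red) and sham lungs (blue), with the genes measured in brackets, for lists with 3 or more calls in exposed lungs or 5 or more in sham lungs. Sterol and fatty acid synthesis genes show 12 higher in exposed lungs and 6 in sham lungs, and B cell markers none in exposed lungs and 13 in sham lungs. Without sham 0 h array 1 the sham count of the synthesis genes was 10.

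Chemokines, which draw leukocytes into tissue, passed in small number between the exposed groups. Of 33 measured, 4 rose and none fell, with a median of 0.26, where 2.46% of all genes rose. In sham lungs 7 rose and 1 fell, and without sham 0 h array 1, 6 rose and 2 fell. The difference of the changes passed for none, and for 1 without that array. Without exposed 0 h array 1, or without array 2, the number that rose in exposed lungs was 2.

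Cxcl14 rose by 0.96 ± 0.24 (adjusted p = 0.012), Ccl17, a dendritic cell product that attracts T cells, by 0.93 ± 0.19 (adjusted p = 0.0015), Cxcl15, a lung epithelial attractant of neutrophils, by 0.61 ± 0.09 (adjusted p = 5.6e-06) and the monocyte attractant Ccl2 by 0.35 ± 0.10 (adjusted p = 0.044). The Ccl2 call was lost under 12 of 19 alternatives. Exposed arrays of 6 h and 0 h did not overlap for Cxcl15 alone.

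The neutrophil attractants Cxcl1, Cxcl2, Cxcl3 and Cxcl5 did not pass between the exposed times, whereas Cxcl15 did. Cxcl1 measured 9.02 to 10.34 in exposed lungs at 6 h, against 8.60 to 10.36 at 0 h, and in sham lungs 6.84 to 7.64 at 6 h and 7.16 to 8.96 at 0 h. The exposed groups overlapped, with a difference of -0.00 ± 0.29. Cxcl2 differed by -0.46, Cxcl3 by 0.88 (adjusted p = 0.062), Cxcl5 by 0.73 (adjusted p = 0.57), Ccl3 by 0.26, Ccl9 by -0.30 and Ccl20 by -0.60, and none of these passed.

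Vnn1, a pantetheinase, measured 9.39, 9.22, 8.34, 9.31 and 8.72 in exposed lungs at 6 h, against 7.07, 7.46, 7.39, 8.42 and 8.17 at 0 h. In sham lungs it measured 6.93 to 7.62 at 6 h and 6.74 to 7.63 at 0 h. The exposed groups overlapped by 1 array on each side. It rose by 1.29 ± 0.20 (2.45-fold; adjusted p = 3.4e-05), and the difference from the sham change, 1.13, passed (adjusted p = 0.039) but was lost under 16 of 29 alternatives, among them the replicate number as a block (adjusted p = 0.057).

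Lcn2, an iron-siderophore binding protein of epithelium and neutrophils, measured 11.87, 11.40, 10.79, 11.94 and 11.22 in exposed lungs at 6 h, against 10.15, 10.18, 10.19, 10.65 and 10.82 at 0 h. Array 3 of 6 h fell just below the highest of 0 h. It rose by 1.05 ± 0.23 (2.07-fold; adjusted p = 0.0044), and the difference from the sham change was 1.33 (adjusted p = 0.033). The call of that difference was lost under 9 of 29 alternatives, with an adjusted p of at most 0.077.

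Genes of iron handling and of the oxidant response moved in small numbers. Of 28 iron and heme genes 3 rose and 1 fell, and of 22 NRF2 and glutathione genes 3 rose and 1 fell. Hmox1, a member of both lists, was the gene that fell in each. Over all genes 2.46% rose and 1.02% fell. No NRF2 or glutathione gene rose without exposed 0 h array 1 or 2 or exposed 6 h array 5. Tfrc, the receptor for transferrin-bound iron, rose by 0.65 ± 0.12 (adjusted p = 0.00036) beside 0.05 in sham lungs, and the difference of the changes, 0.60, did not pass (adjusted p = 0.059). The Tfrc call was lost with the mean of its probe sets (adjusted p = 0.15), as the others gave 0.18 and 0.36. Hmox1, which degrades heme, measured 9.10, 9.33, 9.0, 8.82 and 8.50 in exposed lungs at 6 h, against 9.31, 9.83, 9.36, 9.44 and 9.96 at 0 h, a difference of -0.63 ± 0.18 (adjusted p = 0.036). Nqo1 rose by 0.40, Gstp1 by 0.27, Tkt by 0.32 and Blvrb by 0.34. Hmox1, Nqo1, Gstp1, Tkt and Blvrb each lost the call under 6 or more of 20 alternatives.

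Genes with no place in those lists also led the changes. Nrcam, a cell adhesion molecule, measured 7.34, 7.63, 8.03, 8.22 and 7.89 in exposed lungs at 6 h, against 6.65, 6.39, 6.52, 6.26 and 6.83 at 0 h, and in sham lungs 6.90 to 7.54 at 6 h and 6.86 to 7.51 at 0 h. It rose by 1.29 ± 0.20 (adjusted p = 1.6e-05), and the difference from the sham change, 1.5, passed (adjusted p = 0.002) under all 29 alternatives. Over those alternatives the difference ran from 0.64 to 1.62. Another probe set of Nrcam gave -0.01 for the exposed change. The cadherin gene Fat3 rose by 1.22 ± 0.21, with a difference of 1.41 (adjusted p = 0.011). The extracellular matrix gene Tnc rose by 1.32, Col6a3 by 1.03 and Olfml3 by 1.03, and the matrix genes Col3a1, Col5a1 and Eln of the fibroblast list by 0.88, 0.75 and 0.74, without a passing difference from sham lungs. Of that list, 3 of 17 rose and none fell, and 1 rose without exposed 0 h array 1 or without array 2. The call was lost under 7 of 20 alternatives for Col5a1, which differed by 0.27 as the mean of its probe sets, and under 3 for Col3a1.

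Further genes higher at 6 h were the sodium channel gene Scn3a (1.46), Ddc, which makes dopamine and serotonin (1.22), the adhesion gene Clmp (1.14), the glycogen-targeting subunit gene Ppp1r3c (1.06) and Shisa2 (1.04). Further genes lower at 6 h were Angptl7 (-2.09 ± 0.32), the neutrophil collagenase gene Mmp8 (-2.06 ± 0.58), the nuclear receptor gene Nr4a3 (-1.60), Tcf23 (-1.59), the transcription factor gene Klf11 (-1.23) and F13a1, coagulation factor XIII of monocytes (-1.12). All of them had the same sign in sham lungs. Mmp8 and F13a1 rest on less, with adjusted p of 0.033 and 0.047. Another probe set gave 0.08 for Scn3a, -0.12 for Ddc and -0.03 for Nr4a3.

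The markers of leukocytes that passed in exposed lungs were too small in number to set apart from the 3.48% of all genes that did. Of 18 neutrophil markers 1 rose and 1 fell, with a median of -0.50, against 0.02 over all genes. S100a8 differed by -0.88 and S100a9 by -0.74 without passing. Of the 18, 15 had a value below 0. The list averaged 7.71 to 8.03 at 6 h and 8.04 to 8.99 at 0 h, without overlap, and in sham lungs 7.69 to 8.34 and 8.10 to 8.98. In sham lungs 3 of the 18 fell and none rose, with a median of -0.08. Of 13 monocyte markers 1 fell in exposed lungs, with a median of -0.47, and 11 had a value below 0. That list averaged 8.63 to 9.07 at 6 h and 9.22 to 9.62 at 0 h, also without overlap, and in sham lungs 8.47 to 9.34 and 8.81 to 9.58. Of 23 macrophage markers none passed. None of 17 B and plasma cell markers passed, with a median of -0.05, and none of 24 T and NK cell markers, with a median of 0.07. Of 14 dendritic cell markers 3 rose, Ccl17, Mgl2 (0.70) and Zbtb46 (0.39), and 1 rose without exposed 0 h array 2 or 4 or exposed 6 h array 1 or 4. In whole tissue, fewer cells of a type and less RNA per cell cannot be told apart.

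Of lung structural cells, 3 of 16 alveolar type 2 genes rose, the lipid transporter gene Abca3 (0.29) and Cxcl15 and Lcn2, both counted above. Also higher were 1 of 12 alveolar type 1 genes, the water channel gene Aqp5 (0.50), and 1 of 20 endothelial genes, Vcam1 (0.52). Smooth muscle had 2 of 10 higher, Mylk (0.33) and Smtn (0.59). Of 26 immediate early genes 2 fell, Nr4a3 and Jund (-0.51). Of 18 NF-kB pathway genes 2 fell, Irak3 (-0.40) and Traf1 (-0.61), of 17 chemokine receptors 1, Fpr2 (-0.80), of 30 cell cycle genes 1, Cdc6 (-0.80), of 17 hypoxia and glycolysis genes 1, Ndrg1 (-0.42), and of 15 matrix metalloproteinases and inhibitors 2, Mmp8 and Timp3 (-0.37). Of 24 glucocorticoid response genes 1 rose, Lcn2, and 2 fell, Angptl4 and Pdk4. Over all genes 2.46% were higher and 1.02% lower, and counts this small are not read as a result about a list. The calls of Abca3, Zbtb46, Mgl2, Jund, Irak3, F13a1, Mmp8 and Timp3 were each lost under 8 or more of 20 alternatives. No gene passed of the lists of interferon-stimulated, p53 target, metallothionein, inflammatory cytokine, airway secretory or ciliated cell genes.

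The widest differences between the exposed and the sham change belonged to genes that passed in sham lungs and not in exposed lungs. Hspa1a, an inducible heat shock protein, measured 9.06, 9.27, 9.44, 9.49 and 8.49 in exposed lungs at 6 h, against 9.83, 9.64, 7.41, 8.32 and 7.60 at 0 h. Among sham lungs the values were 7.55, 7.45, 7.37, 8.17 and 8.56 at 6 h, against 7.99, 10.33, 12.41, 11.97 and 12.53 at 0 h. The exposed arrays overlapped, and 4 of the 5 sham arrays of 0 h were the highest. The exposed difference was 0.59 (adjusted p = 0.68), the sham difference -3.22, and the difference of the changes 3.81 (adjusted p = 0.0044), or 4.58 without sham 0 h array 1 (adjusted p = 1.7e-05).

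Its near-identical copy Hspa1b gave 3.55, and probes may read both. The cochaperone genes Dnajb1 (1.70), Dnaja1 (1.51), Chordc1 (1.17), Bag3 (0.99) and Dnajb4 (0.74) passed as well, so that 7 of 19 heat shock genes differed, while 1 of 19 rose in exposed lungs, Cryab (0.47), and 10 fell in sham lungs (11 without sham 0 h array 1, with 1 higher). With the 4 groups of 0 h and 6 h fitted alone the number was 1, without sham 0 h array 1 it was 8, and it was 4 without sham 0 h array 3 or 5, sham 6 h array 2 or exposed 0 h array 3. Klhl29 (1.78), Tnik (1.47) and Fkbp14 (1.29) lay above the sham change in the same way. Zbtb46 (0.94) lay above it too, but had also passed in exposed lungs, where it rose by 0.39 (limma adjusted p = 0.048). The calls of Bag3, Chordc1, Dnajb4 and Fkbp14 were lost under 6, 5, 9 and 12 of 29 alternatives, that of Fkbp14 also with the replicate number as a block (adjusted p = 0.058). Hspa1a lost its call with the 4 groups alone (adjusted p = 0.071). Tnik and Zbtb46 lost it with the mean of their probe sets, at 0.39 and 0.36. Dnajb4 was named after its values were seen.

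Below the sham change lay genes of B cells. Bank1, a B cell scaffold, measured 7.21, 6.45, 6.87, 7.25 and 7.08 in exposed lungs at 6 h, against 6.83, 6.90, 7.92, 7.20 and 6.81 at 0 h. Sham arrays read 8.12, 7.80, 7.34, 6.72 and 6.37 at 6 h, against 6.12, 4.85, 4.62, 4.87 and 4.45 at 0 h. The exposed difference was -0.16 and the sham difference 2.29, and the difference of the changes was -2.45 (adjusted p = 0.02), or -2.73 without sham 0 h array 1 (adjusted p = 0.0043). This call was lost without sham 6 h array 1 or 2 or exposed 0 h array 3, with an adjusted p of at most 0.055. Of 17 B and plasma cell markers 13 rose in sham lungs, with a median of 0.90, also without sham 0 h array 1, and of 24 T and NK cell markers 15. The T and NK count was 13 without sham 0 h array 1, 7 without sham 0 h array 5 or sham 6 h array 2, 8 without sham 6 h array 1 and 9 without sham 6 h array 3. The difference of the changes passed for 2 of the 17 B cell markers, for 6 without sham 0 h array 1, for 7 without sham 6 h array 5, and for none without sham 6 h array 1 or 2 or exposed 0 h array 3. It passed for 1 without sham 0 h array 3, 4 or 5, sham 6 h array 3, exposed 0 h array 4 or 5, or exposed 6 h array 2, 3 or 5.

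The immunoglobulin segment gene Ighv14-2 (-2.42), the B cell coactivator gene Pou2af1 (-1.83), the lymphocyte receptor genes Btla (-1.47), Tnfrsf13b (-1.20) and Ccr6 (-1.14), the leukotriene receptor gene Cysltr1 (-1.30), Rspo1 (-1.44) and Angpt2 (-1.22) also lay below, as did the cold-inducible RNA-binding protein gene Cirbp (-2.04) and the splicing factor gene Srsf5 (-1.01). None of them passed in exposed lungs. The call of the difference was lost for Ighv14-2 under 18 of 29 alternatives, for Rspo1 under 15, for Pou2af1 under 13, for Tnfrsf13b under 12, for Btla under 2 and for Srsf5 under 1. The alternatives that lost it held the replicate number as a block for Ighv14-2 (adjusted p = 0.061) and Pou2af1 (adjusted p = 0.05). The whole B cell list averaged 6.51 to 6.83 in exposed lungs at 6 h and 6.49 to 7.07 at 0 h, and in sham lungs 6.18 to 7.33 at 6 h and 5.47 to 6.14 at 0 h, so the sham 0 h arrays were the lowest.

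The later exposed groups, of 24 to 168 h, were used to see which of the 2 times lay farther from them. These groups were not housed alike. The paper states that mice of the 168 h time lived in metabolism cages on a liquid diet. In exposed lungs Angptl4 averaged 8.35 at 96 h and 10.12 at 168 h, and the part of diet or housing was not tested. For 551 of the 633 genes (87.0%) the later exposed mean lay between 0 h and 6 h, against 44.2% of all genes, and it lay farther from 6 h for 336 and farther from 0 h for 297. Since these genes were chosen by the same contrast, this is a description. Clock genes stood apart at 6 h, in 9 of 10, with Npas2 at 7.01 ± 0.29 (SD, n = 5) at 6 h, 4.92 ± 0.58 at 0 h and 3.77 to 4.10 over the later exposed means. Of these 10, the later mean lay between the 2 times for 1. A later mean between the 2 times can still lie closer to 1 of them. Of the 4 chemokines that passed it lay between for 2, and 6 h was the farther in all 4. For the sterol, fasting and unfolded protein response lists the later mean mostly lay between. It did so for all 12 sterol genes that passed, with 6 h the farther in 9. The same held for all 8 fasting genes, with 0 h the farther in 6. Of 6 genes of the unfolded protein response it lay between for 5, and 0 h was the farther in 4.

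**Figure D5:**
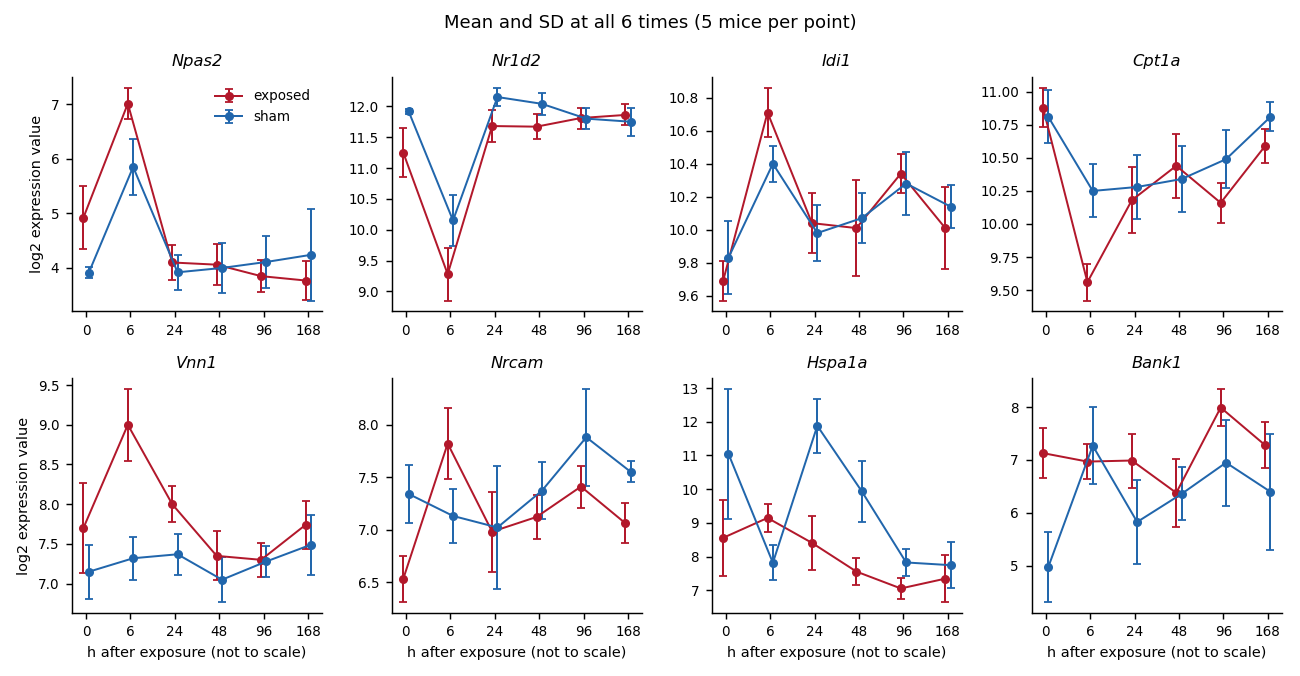
Mean and SD of 5 mice at each of the 6 times (hours after exposure, not to scale) in exposed and sham lungs for 8 genes. Npas2 peaks and Nr1d2 dips at 6 h in both and lie near their 0 h sham level from 24 h on, Idi1 and Vnn1 are highest at 6 h in exposed lungs, Hspa1a is lower in exposed than in sham lungs at 0, 24 and 48 h, and Bank1 is higher in exposed lungs at 0 h.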

How the data were processed

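Expression had been measured on Affymetrix Mouse 430 2.0 arrays, 1 per mouse, in 12 groups of 5. The deposited values were log2 intensities that the authors had normalized over the arrays with RMA (per the submitters' processing notes, with no version given), which sets all arrays to 1 distribution before probe sets are summarised. Array medians ran from 5.54 to 5.64, and the lowest correlation between arrays was 0.973. The number of arrays limits the precision. The p-values measure the spread between mice.

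Of 45101 probe sets, 64 controls were left out, 34945 had 1 gene symbol, 932 several and 9160 none in the platform annotation. For each of 18193 genes the probe set with the highest mean over 60 arrays was used. limma 3.58.1 in R 4.3.3 fitted all 12 groups (48 residual degrees of freedom), and p-values were adjusted by Benjamini-Hochberg over all genes for the exposed change, the sham change and their difference, each two-sided. The exact permutation test was two-sided over 252 splits of 10 arrays. The fit was tested on simulated data. Figures were drawn with matplotlib 3.10.9.

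Named genes were, among passing genes whose arrays did not overlap, those with the 14 largest positive and 14 largest negative exposed differences, the 10 highest and 10 lowest passing differences of the changes, up to 5 members of each of 44 lists by smallest exposed p, all measured clock genes, chemokines and the genes the study measured by PCR. Predicted transcripts were passed over, and not every gene so chosen is described. The members and lists were chosen with earlier results of these data known. Alternatives covered probe set choice, a filter at a log2 value of 6 in 5 arrays, scaling, the groups fitted, moderation, array weights, the replicate number as a block, a fold minimum, the methods' test (unequal-variance ANOVA over the groups with Tukey's comparison of the pair) and leaving out each array. Same-numbered arrays of 6 h and 0 h correlated, in their deviations from the group means, between -0.44 and 0.29 in the exposed arm, where none of 5 numbers matched best with itself, and between 0.11 and 0.55 in the sham arm, where 3 of 5 did. The numbers were taken from the labels. The block fitted the number within each arm over all 6 times, exposed arrays included. As the match in the sham arm is only a hint from the data, the main fit had no block. Values with the block are given where it changed a call that uses sham arrays. Of the named genes that passed, 53 of 84 had more than 1 probe set, and none had another probe set that passed in the opposite direction. For 46 of these 53 all other probe sets had the same sign. Some lay near 0, as for Tnc (0.06) and Fdps (0.04).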

Additional observations from a re-analysis of the deposited data

Results flagged for a closer look

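Of 508 groups of 5 arrays over 127 named genes, 36 (7.09%) held a highest or lowest array whose gap to the nearest exceeded Dixon's limit of 0.71 of the range, where chance flags about 1 in 20. Exposed 6 h array 1 stood out for Acot2 at 9.07 (nearest 9.34), Fat3 at 6.88 (nearest 7.16), Irs2 at 6.57 (nearest 7.52), Klf11 at 7.99 (nearest 8.53) and Rora at 9.22 (nearest 9.73). Exposed 6 h array 2 stood out for Fasn at 9.85 (nearest 10.04). Exposed 6 h array 3 stood out for Ccl17 at 6.72 (nearest 7.49), Ccl9 at 8.87 (nearest 9.62) and Scd2 at 12.74 (nearest 12.53). Exposed 6 h array 4 stood out for Tnfrsf13b at 7.08 (nearest 6.68). Exposed 6 h array 5 stood out for Cry1 at 9.60 (nearest 9.41). Exposed 0 h array 2 stood out for Hmgcs1 at 10.33 (nearest 10.68). Exposed 0 h array 3 stood out for Cxcl5 at 6.85 (nearest 8.47) and Ighv14-2 at 8.39 (nearest 7.33). Exposed 0 h array 5 stood out for Ccl9 at 10.30 (nearest 9.84). Sham 6 h array 4 stood out for Ccl9 at 8.33 (nearest 9.25), Cyp51 at 7.73 (nearest 7.93) and Nr1d1 at 6.34 (nearest 5.36). Sham 6 h array 5 stood out for Scd1 at 13.40 (nearest 12.80). Sham 0 h array 1 stood out for Angptl4 at 9.28 (nearest 10.82), Angptl7 at 6.32 (nearest 8.68), Atf4 at 11.11 (nearest 11.56), Bank1 at 6.12 (nearest 4.87), Cry2 at 7.96 (nearest 8.35), Hmgcs1 at 11.45 (nearest 10.59), Ighv14-2 at 6.06 (nearest 5.00), Scd1 at 13.64 (nearest 12.27), Shisa2 at 5.46 (nearest 4.57), Tcf23 at 5.47 (nearest 7.01), Tkt at 12.57 (nearest 12.02), Tnik at 8.57 (nearest 9.33) and Txnip at 12.30 (nearest 12.85). Sham 0 h array 5 stood out for Blvrb at 8.10 (nearest 8.32), Ccr6 at 7.07 (nearest 6.69), Nrcam at 6.86 (nearest 7.37) and Olfml3 at 8.96 (nearest 9.69).

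The sham 0 h array 1 held 13 of the 36 outlying values. It was also the array with the highest Alb (14.02) and Xist (11.94), and the part of that RNA in those values was not tested.

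The change between 0 h and 6 h differed between exposed and sham lungs for 29 named genes by the limma test of the difference of the changes, adjusted p under 0.05. The exposed change lay above the sham change on the log2 scale for Atf4 (0.48), Bag3 (0.99), Chordc1 (1.17), Ciart (1.14), Dnaja1 (1.51), Dnajb1 (1.70), Dnajb4 (0.74), Fat3 (1.41), Fkbp14 (1.29), Hspa1a (3.81), Hspa1b (3.55), Klhl29 (1.78), Lcn2 (1.33), Nrcam (1.5), Tnik (1.47), Vnn1 (1.13) and Zbtb46 (0.94). It lay below for Angpt2 (-1.22), Bank1 (-2.45), Btla (-1.47), Ccr6 (-1.14), Cirbp (-2.04), Cpt1a (-0.76), Cysltr1 (-1.30), Ighv14-2 (-2.42), Pou2af1 (-1.83), Rspo1 (-1.44), Srsf5 (-1.01) and Tnfrsf13b (-1.20).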

How the results depend on the processing

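The count of 633 genes in exposed lungs was 1108 with array weights, 172 at 1.5-fold or more, 38 at 2-fold or more, 315 by the methods' test, and 306 to 632 with 1 array left out. The sham count of 2072 was 1200 with its 2 groups alone, 482 at 1.5-fold or more, 115 at 2-fold or more, 1043 by the methods' test and 1459 to 2440 with 1 array left out. The 161 differences of the changes became 272 with the filter on low values, 264 with quantile normalization, 101 with the 4 groups alone, 1037 with array weights, 32 at 2-fold or more and 58 to 323 with 1 array left out. Single arrays moved that count by more than 1.5 times: sham 0 h arrays 1 (323), 3 (91) and 4 (89), sham 6 h arrays 1 (71) and 2 (58), exposed 0 h arrays 1 (260), 3 (61), 4 (102) and 5 (90), and exposed 6 h arrays 1 (281), 2 (90), 3 (90) and 5 (84). Leaving out the array with the most Alb in each arm, sham 0 h array 1 and exposed 0 h array 1, chosen after seeing the data, gave 377 exposed calls and 455 differences. The cause was not tested. With the replicate number as a block the counts were 610, 1994 and 138. The block lost 5 named differences (Atf4, Fkbp14, Ighv14-2, Pou2af1 and Vnn1) and 3 named exposed calls (Irak3, Jund and Pdk4), and no other call of a named gene. Over 127 exposed values of named genes, 236 alternatives lost a call, 15 gained one and none reversed its direction, and over 29 differences 146 lost a call and none reversed.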
